A study of Mus musculus and Homo sapiens with 12 samples.

Results

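The PFKFB family was followed in a pair of breast cancer lines, the mouse line EMT6 and the human line MDA-MB-231. Its 4 genes were taken by symbol in the mouse table and by Ensembl identifier in the human table, which gave 8 of the 54331 mouse and 60233 human genes listed. Each line was sequenced as PFKFB4 knockout and as wild type, with 3 libraries per group and 12 in all. Both genotypes grew in the same high-glucose medium with serum. The labels do not say how or where PFKFB4 was edited, nor whether a knockout is 1 clone or several. Knockout columns are headed by a code that the labels do not explain (A7 for EMT6, G2 for MDA-MB-231), and were matched to samples by line, number and elimination, since all other columns name the wild type. The labels call the libraries biological replicates without naming separate cultures, so each p-value reflects only how these libraries scatter, which may be technical.

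PFKFB enzymes are bifunctional. Their kinase domain makes a regulatory fructose bisphosphate from fructose phosphate, and their phosphatase domain removes it again. That metabolite activates phosphofructokinase, the committed step of glycolysis, and inhibits the opposing fructose bisphosphatase. PFKFB1 is best known from liver and muscle, PFKFB2 from heart, PFKFB3 as an inducible form with mainly kinase activity, and PFKFB4 from testis and tumours. PFKFB3 and PFKFB4 are known targets of the hypoxia-inducible factor HIF.

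Because HIF binds a core of ACGTG, the 250 bases upstream of each RefSeq start site of the mouse genes were searched for it on both strands. RefSeq sequences on GRCm38.p6 were found for 4 of 4 mouse genes, with 10 start sites in all, and 4 of these 10 windows held the motif. Of all 32851 mouse windows of that length, 16.6% held it. Pfkfb3 held it in 2 of 2 windows and Pfkfb2 in 2 of 3. Pfkfb1 held it in 0 of 4 and Pfkfb4 in 0 of 1, which says only that these letters are not in these windows. The related core GCGTG was present in 28.2% of all windows, and in 1 window each of Pfkfb1, Pfkfb3 and Pfkfb4 and 2 of Pfkfb2. The 4 windows below show 1 start per gene, in lower case with each ACGTG or its reverse complement CACGT in capitals. For Pfkfb1 and Pfkfb3 they belong to the start nearest the 5′ end of the GENCODE gene, and Pfkfb4 has a single start. The Pfkfb2 window is shown because it holds CACGTG, a palindrome that counts once on each strand, as does the other Pfkfb3 window. RefSeq and GENCODE starts differ, so part of the Pfkfb1, Pfkfb3 and Pfkfb4 windows lies within the gene as GENCODE draws it. The Pfkfb2 window lies wholly within it, since its start is 13432 bases from the GENCODE 5′ end. In the windows shown, the motif opens 60 bases upstream of the Pfkfb3 start and 22 bases upstream of the Pfkfb2 start.
Pfkfb4, chr9:108991652-108991901, plus strand: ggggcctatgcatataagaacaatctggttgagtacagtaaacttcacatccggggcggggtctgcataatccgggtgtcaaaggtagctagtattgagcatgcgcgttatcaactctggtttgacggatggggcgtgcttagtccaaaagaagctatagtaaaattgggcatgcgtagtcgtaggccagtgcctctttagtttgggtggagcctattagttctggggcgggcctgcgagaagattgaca
Pfkfb3, chr2:11553930-11554179, minus strand: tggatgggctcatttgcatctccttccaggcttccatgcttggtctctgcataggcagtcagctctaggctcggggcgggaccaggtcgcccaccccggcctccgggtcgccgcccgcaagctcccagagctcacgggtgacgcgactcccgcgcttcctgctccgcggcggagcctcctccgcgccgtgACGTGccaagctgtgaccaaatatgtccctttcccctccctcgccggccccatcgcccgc
Pfkfb2, chr1:130715822-130716071, minus strand: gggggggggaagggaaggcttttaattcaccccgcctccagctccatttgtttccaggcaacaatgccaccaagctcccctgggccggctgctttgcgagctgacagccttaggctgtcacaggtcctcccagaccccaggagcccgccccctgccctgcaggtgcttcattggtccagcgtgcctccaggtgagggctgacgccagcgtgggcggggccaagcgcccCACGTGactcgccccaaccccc
Pfkfb1, chrX:150587993-150588242, plus strand: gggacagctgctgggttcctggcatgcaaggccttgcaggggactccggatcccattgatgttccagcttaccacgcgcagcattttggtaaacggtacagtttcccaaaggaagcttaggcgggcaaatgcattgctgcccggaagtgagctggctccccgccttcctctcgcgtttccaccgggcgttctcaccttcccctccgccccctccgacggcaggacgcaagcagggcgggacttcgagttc

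Values are TPM, a unit scaled to the library and corrected for gene length, so that levels of different genes can be set side by side. How many reads lie behind a value is unknown. Each EMT6 knockout library held 11871 to 12015 genes of 1 TPM or more, and each wild-type library 12350 to 12426. In MDA-MB-231 the range was 13038 to 13338 in knockout and 13423 to 13593 in wild type. In EMT6, 4 of 8 epithelial markers were tested, of which Krt8 was higher and 3 other keratins were lower. Of all genes tested in EMT6, 14.5% were higher and 42.3% lower. Krt8 averaged 535 TPM in the knockout and 482 TPM in wild type, Krt18 15.5 TPM in the knockout and 36.3 TPM in wild type, Krt14 3.94 TPM in the knockout and 36.5 TPM in wild type, and Krt19 0.0177 TPM in the knockout and 1.95 TPM in wild type. Krt5, Epcam, Cdh1 and Cldn4 were under 1 TPM in all 6 EMT6 libraries. The list summed to 542 to 568 TPM in the knockout libraries and 530 to 584 TPM in the wild-type libraries, most of it Krt8. Of 5 mesenchymal markers, 4 were tested, of which Vim was higher and 3 were lower, beside the same shares. Median-ratio scaling, described below, kept 1 higher and 3 lower in both lists, beside 26.6% higher and 25.4% lower of all tested genes. With the trend with exon length removed, epithelial markers again gave 1 higher and 3 lower, and mesenchymal markers 1 higher and 2 lower. Of all tested genes, 23.2% were then higher and 26.6% lower. Fn1 was the marker no longer called (-0.006, limma adjusted p = 0.949). Vim averaged 3292 TPM in the knockout and 2711 TPM in wild type, Fn1 451 TPM in the knockout and 616 TPM in wild type, Sparc 187 TPM in the knockout and 281 TPM in wild type, and Zeb1 1.69 TPM in the knockout and 4.74 TPM in wild type. Cdh2 was under 1 TPM in all 6. The part of these markers in the family's values was not tested. The 6 leukocyte markers summed to 0.0237 to 0.282 TPM in the knockout libraries and 0.0359 to 0.114 TPM in the wild-type libraries, with Adgre1 at 0. The 4 endothelial markers summed to 0.0142 to 0.0415 TPM in knockout and 0.0574 to 0.0837 TPM in wild type, with Kdr at 0. Markers could not be looked up in MDA-MB-231, where no name table was used.

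The transcript of the targeted gene was present in every knockout library of both lines, with a mean below that of wild type. In EMT6, Pfkfb4 (ENSMUSG00000025648, chromosome 9, 108991778 to 109032228, plus strand, GRCm38) had 6.96, 6.87 and 8.24 TPM in the knockout libraries, against 10.2, 10.5 and 10.4 TPM in the wild-type libraries. All knockout libraries lay below all wild-type libraries, and the knockout mean was 0.71 of the wild-type mean. In MDA-MB-231, PFKFB4 (ENSG00000114268) had 1.48, 2.13 and 2.14 TPM in the knockout libraries, against 3.33, 2.34 and 2.94 TPM in the wild-type libraries. Here too the groups did not overlap, although the highest knockout library lay close to the lowest wild-type library, and the ratio of means was 0.668. Such values leave the edit unchecked, because an edited gene can still be transcribed.

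Tests were made with limma on log2(TPM + 1) across all genes of a line with at least 0.5 TPM in at least 3 of its 6 libraries, with Benjamini-Hochberg adjustment and calls at 0.05. Fold changes on this scale understate the change of low genes. The log2 fold change of Pfkfb4 in EMT6 was -0.45 ± 0.08 (SE, limma adjusted p = 0.00487), in 3 of 3 knockout libraries. It was not called when libraries were scaled by their median ratio (-0.23, adjusted p = 0.0632) or when the trend with exon length was removed (-0.18, adjusted p = 0.134). The log2 fold change of PFKFB4 in MDA-MB-231 was -0.41 ± 0.15 (SE), with a 95% interval of -0.78 to -0.04 before adjustment, and it missed the threshold (limma adjusted p = 0.113). As bulk RNA was measured, fewer cells that express a gene and less of its RNA per cell cannot be told apart.

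The lower Pfkfb4 level in the EMT6 knockout stood among many lower transcripts. Of 13499 genes tested in EMT6, 42.3% were called lower and 14.5% higher, so that 56.7% were called in either direction, and the median log2 fold change was -0.21. The calls split into 3426 lower and 3584 higher with median-ratio scaling and 3589 lower and 3124 higher with the exon length trend removed, against 5705 lower and 1954 higher in TPM. As shares of the genes tested, that was 25.4% lower and 26.6% higher with median-ratio scaling, and 26.6% lower and 23.2% higher with the length trend removed. Median-ratio scaling moved the median of all tested genes to -0.01. In TPM, the log2 fold change of Pfkfb4 minus the median of -0.21 was -0.24, and 29.2% of tested genes had a lower one. In MDA-MB-231, 20.0% of 15299 tested genes were called, 12.1% lower and 7.97% higher, with a median of -0.04. Of these genes, 16.0% had a lower log2 fold change than PFKFB4. The 3065 calls dropped to 1551 without knockout replicate 2, 1821 without knockout replicate 3, 1559 without wild-type replicate 1 and 1968 without wild-type replicate 3.

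**Figure D1:**
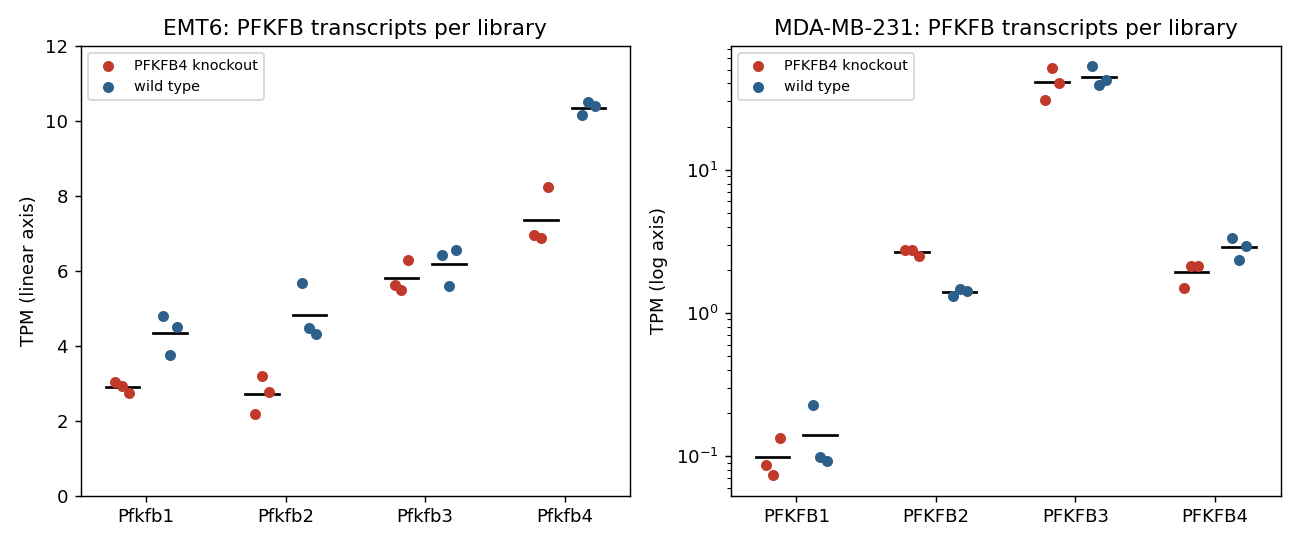
TPM of the 4 PFKFB genes in each library of EMT6 (linear axis) and MDA-MB-231 (log axis), with PFKFB4 knockout in red and wild type in blue, and black bars for the means of 3 libraries. Pfkfb4 leads in EMT6 and PFKFB3 in MDA-MB-231, where PFKFB2 is the gene with all knockout libraries above all wild-type libraries.

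Pfkfb3 and PFKFB3, the isoform with mainly kinase activity, did not pass the test in TPM in either line. In EMT6, Pfkfb3 (ENSMUSG00000026773, chromosome 2, 11471433 to 11554077, minus strand) had 5.62, 5.498 and 6.28 TPM in the knockout libraries, against 6.41, 5.596 and 6.55 TPM in the wild-type libraries. The groups overlapped, with a log2 fold change of -0.08 and a 95% interval of -0.29 to 0.13 (limma adjusted p = 0.456). The sign of Pfkfb3 followed the scaling, reaching 0.13 once libraries were scaled by median ratio (adjusted p = 0.238). Correction for exon length made it 0.28 (adjusted p = 0.0329), a call in the higher direction. Relative to the median of all tested genes, its TPM change was also 0.13.

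In MDA-MB-231, PFKFB3 (ENSG00000170525) had 30.5, 51.6 and 40.04 TPM in the knockout libraries, against 52.6, 38.9 and 41.96 TPM in the wild-type libraries. The groups overlapped widely and the spread within each was large, with SDs of 10.5 TPM in the knockout and 7.18 TPM in wild type. Its log2 fold change was -0.14, with a 95% interval of -0.63 to 0.35 that still holds moderate changes in either direction (limma adjusted p = 0.659). Without knockout replicate 1, the lowest library, the value was 0.04 (adjusted p = 0.89).

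PFKFB2, the heart-type isoform, was called lower in the EMT6 knockout and higher in the MDA-MB-231 knockout in TPM. In EMT6, Pfkfb2 (ENSMUSG00000026409, chromosome 1, 130689182 to 130729253, minus strand) had 2.19, 3.19 and 2.77 TPM in the knockout libraries, against 5.68, 4.46 and 4.31 TPM in the wild-type libraries. All knockout libraries lay below all wild-type libraries. The drop came to -0.65 ± 0.14 on the log2 scale (SE, n = 3 each; limma adjusted p = 0.0095) and was also called under median-ratio scaling (-0.46, adjusted p = 0.0277) but not with the exon length trend removed (-0.29, adjusted p = 0.0759). 16.7% of tested genes had a lower log2 fold change.

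In MDA-MB-231, PFKFB2 (ENSG00000123836) had 2.75, 2.76 and 2.48 TPM in the knockout libraries, against 1.31, 1.47 and 1.42 TPM in the wild-type libraries. All knockout libraries lay above all wild-type libraries, and the knockout mean was 1.91 times the wild-type mean. On the log2 scale PFKFB2 was higher by 0.61 ± 0.1 (SE, n = 3 each; limma adjusted p = 0.00791), and by 0.64 under median-ratio scaling (adjusted p = 0.00803). Of all genes tested in MDA-MB-231, 95% had a lower log2 fold change than PFKFB2. It passed the threshold in each of the 6 fits that left out 1 library (adjusted p = 0.0218 to 0.041). The tables of the lines were normalized separately, so the difference between lines was not tested.

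Pfkfb1, the liver and muscle isoform, was lower in the EMT6 knockout and barely detected in MDA-MB-231. In EMT6, Pfkfb1 (ENSMUSG00000025271, chromosome X, 150588229 to 150643878, plus strand) had 3.04, 2.93 and 2.75 TPM in the knockout libraries, against 4.8, 3.75 and 4.51 TPM in the wild-type libraries. The groups did not overlap, and Pfkfb1 changed by -0.45 ± 0.09 on the log2 scale (SE, n = 3 each; limma adjusted p = 0.00875). It was called under median-ratio scaling (-0.26, adjusted p = 0.0447) but not with the exon length trend removed (-0.24, adjusted p = 0.0581). In MDA-MB-231, PFKFB1 (ENSG00000158571) had 0.0868, 0.0735 and 0.134 TPM in the knockout libraries, against 0.228, 0.0985 and 0.0917 TPM in the wild-type libraries. It did not reach the filter and was not tested, and the groups overlapped.

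Of the 8 members, 7 passed the filter. In all, 3 of 4 members were called lower in EMT6, where 42.3% of all tested genes were. Groups did not overlap for the same 3 members, all lower, beside 66.2% of all tested genes in either direction, 48.3% lower and 17.9% higher. In MDA-MB-231, 1 of 3 tested members was called, PFKFB2 higher, where 20.0% of all tested genes were called, 12.1% lower and 7.97% higher. Groups there did not overlap for 2 of 3, PFKFB2 higher and PFKFB4 lower. Beside this stood 40.1% of all tested genes in either direction, 22.9% lower and 17.2% higher. Some annotated exons are shared with other genes. The exons of Pfkfb1 share 123 nt, 3.06% of their length, with Apex2 on the opposite strand, which had 20.3 ± 5.6 TPM in the knockout and 19.4 ± 0.977 TPM in wild type (SD, n = 3 each). Those of Pfkfb2 share 154 nt with Yod1 on the opposite strand and 1262 nt, 17.4% of their length, with Gm29427 on the same strand. Yod1 was lower too (-0.51, limma adjusted p = 0.00292), and Gm29427 averaged 0.0054 TPM in the knockout and 0.0369 TPM in wild type. The strand setting of the counting is not given, so whether reads from opposite strands were told apart is unknown. Strand cannot separate Pfkfb2 from Gm29427, and how reads in their shared stretch were treated is unknown too. No other annotated gene overlapped Pfkfb4, and the genes within Pfkfb3 shared 0 nt of its exons.

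**Figure D2:**
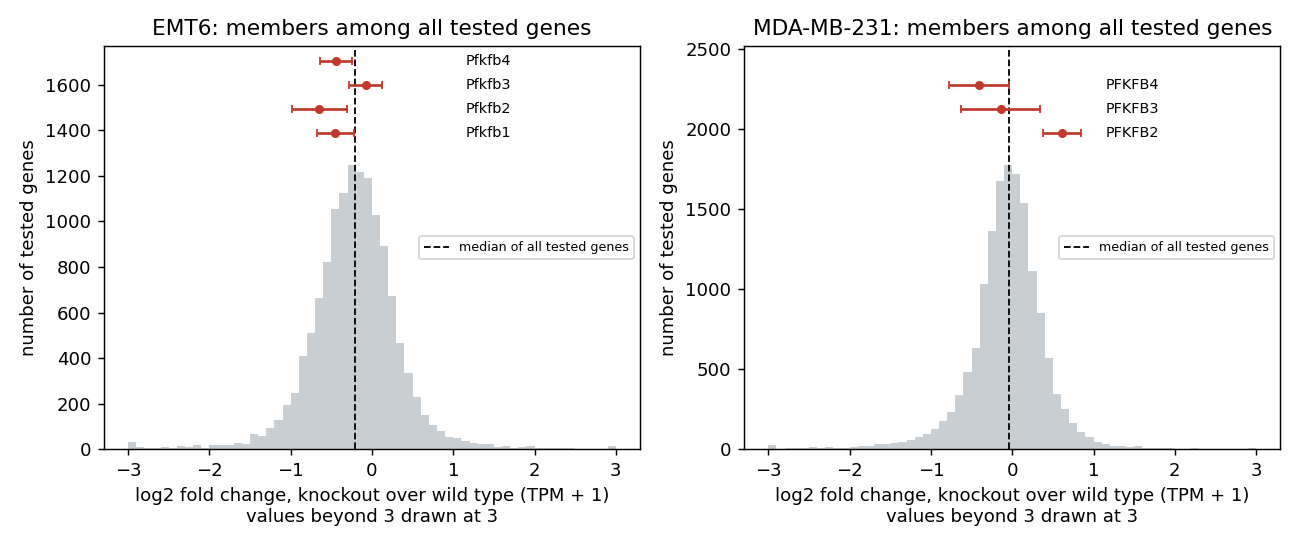
Distribution of log2 fold changes (knockout over wild type, TPM + 1) over the 13499 tested genes of EMT6 and the 15299 of MDA-MB-231, with the tested PFKFB genes above as points with 95% intervals. In EMT6 the dashed median lies at -0.21 and Pfkfb4 at -0.45, while PFKFB2 in MDA-MB-231 sits at 0.61, in the right flank.

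The make-up of the family differed between the lines. In EMT6, Pfkfb4 was the most abundant member in each of the 6 libraries. PFKFB3 was in each of the 6 of MDA-MB-231. Pfkfb4 held 39.1 ± 1.97% of the summed family TPM in the EMT6 knockout and 40.4 ± 2.83% in wild type (SD, n = 3 each), a difference smaller than either SD. Pfkfb3 held 30.9 ± 0.992% in the knockout and 24.0 ± 1.24% in wild type, without overlap between groups. Pfkfb2 held 14.5 ± 2.54% in the knockout and 18.7 ± 2.14% in wild type, and Pfkfb1 15.5 ± 1.68% in the knockout and 16.9 ± 1.28% in wild type, both with overlap. The summed family TPM was 17.8, 18.5 and 20.03 in the knockout libraries, against 27.1, 24.3 and 25.8 in the wild-type libraries.

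Ranked by level, the EMT6 knockout ran Pfkfb4, Pfkfb3, and then Pfkfb1 and Pfkfb2, whose values overlapped. In EMT6 wild type, Pfkfb4 stood apart from the rest. Pfkfb3 and Pfkfb2 overlapped there, since the lowest Pfkfb3 library had 5.596 TPM and the highest Pfkfb2 library 5.68 TPM, and Pfkfb2 and Pfkfb1 overlapped as well.

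In MDA-MB-231, PFKFB3 held 87.6, 91.2 and 89.4% of the summed TPM in the knockout libraries, against 91.5, 90.9 and 90.4% in the wild-type libraries. The groups overlapped. PFKFB2 held 7.9, 4.89 and 5.54% in the knockout libraries, against 2.28, 3.43 and 3.05% in the wild-type libraries, without overlap. PFKFB4 held 4.25, 3.77 and 4.77% in the knockout libraries, against 5.79, 5.46 and 6.33% in the wild-type libraries, again without overlap. The middle ranks were exchanged: PFKFB2 exceeded PFKFB4 in 3 of 3 knockout libraries, and PFKFB4 exceeded PFKFB2 in 3 of 3 wild-type libraries.

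**Figure D3:**
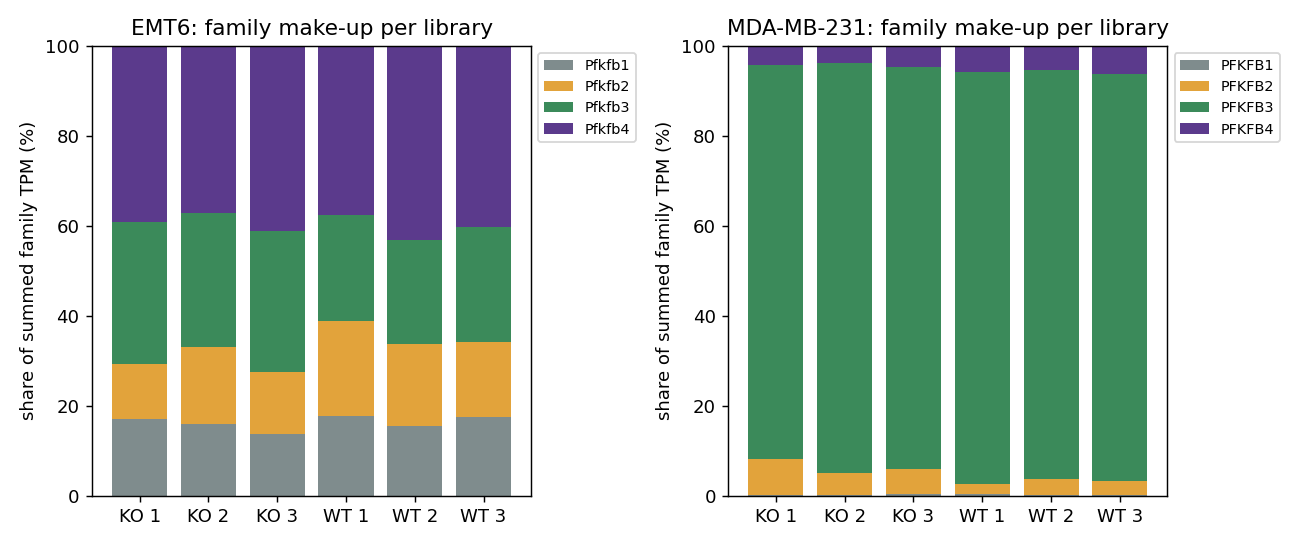
Share of the summed family TPM held by each PFKFB gene (percent, stacked bars) in the 3 knockout (KO) and 3 wild-type (WT) libraries of each line. The Pfkfb3 band is wider in the EMT6 knockout bars, and the PFKFB2 band is wider in the MDA-MB-231 knockout bars, where PFKFB3 fills 87.6 to 91.5% of every bar.

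A ratio of 2 genes within a library does not change when the library is divided by a common factor, as in median-ratio scaling. Removal of the exon length trend can change it, and the ratios were not computed with that correction. The log2 ratio of Pfkfb4 to Pfkfb3 in EMT6 was 0.31, 0.32 and 0.39 in the knockout libraries, against 0.66, 0.91 and 0.67 in the wild-type libraries. The groups did not overlap, and the difference of means was -0.41 (exact two-sided permutation p = 0.1, the smallest that 3 against 3 libraries allow). In MDA-MB-231 the log2 ratio of PFKFB4 to PFKFB3 was -4.37, -4.6 and -4.23 in the knockout libraries, against -3.98, -4.06 and -3.84 in the wild-type libraries. Again the groups did not overlap, and the difference was -0.44 (exact two-sided permutation p = 0.1, the smallest possible). The SD of this ratio was 0.19 in the knockout and 0.11 in wild type. Leaving out 1 library at a time, the difference lay between -0.45 and -0.33 for EMT6 and between -0.52 and -0.34 for MDA-MB-231.

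Ratios with PFKFB2 were added after the values were seen, so their p-values give no independent support. An exact permutation p of 0.1 is again the smallest possible. The log2 ratio of PFKFB2 to PFKFB3 differed by -0.74 between EMT6 genotypes and by 1.08 between MDA-MB-231 genotypes, without overlap in either line (exact two-sided permutation p = 0.1 in each). The log2 ratio of PFKFB2 to PFKFB4 in MDA-MB-231 was 0.89, 0.38 and 0.22 in the knockout libraries, against -1.35, -0.67 and -1.05 in the wild-type libraries, with no overlap (exact two-sided permutation p = 0.1). In EMT6 the same ratio had means of -1.45 in the knockout and -1.12 in wild type, with overlapping groups (exact two-sided permutation p = 0.3).

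**Figure D4:**
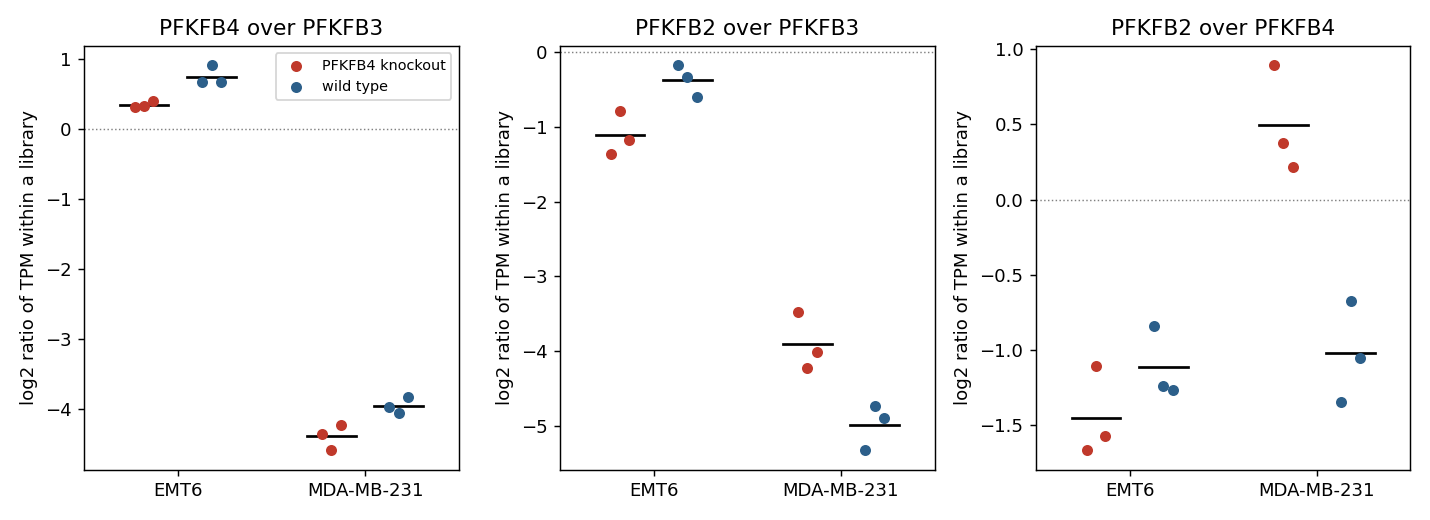
Log2 ratios of TPM between PFKFB genes within each library, with knockout in red left of wild type in blue. Bars mark means and a dotted line marks equal levels. The panels with PFKFB2 were added after the values were seen. PFKFB4 over PFKFB3 is lower in all knockout libraries of both lines (differences of -0.41 and -0.44), whereas PFKFB2 over PFKFB3 is lower in the EMT6 knockout (-0.74) and higher in the MDA-MB-231 knockout (1.08).

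The enzymes that sense or share the PFKFB product were read in EMT6, where names could be matched. Of 7 genes of this circuit, 5 were tested, 3 were called lower and 0 higher, with a median log2 fold change of -0.26 beside -0.21 over all tested genes, of which 42.3% were called lower and 14.5% higher. Median-ratio scaling and removal of the exon length trend each gave 1 lower and 1 higher. The shares of all tested genes were 25.4% lower and 26.6% higher by median ratio, and 26.6% lower and 23.2% higher after the length correction. Pfkl, the liver-type phosphofructokinase, was lower, with 39.9 ± 2.19 TPM in the knockout and 60.6 ± 2.12 TPM in wild type (SD, n = 3 each; log2 fold change -0.59, limma adjusted p = 0.000606), and stayed called under both rescalings (-0.36 and -0.26). The platelet-type Pfkp had 41.4 ± 3.06 TPM in the knockout and 51.6 ± 0.553 TPM in wild type (-0.31, limma adjusted p = 0.00637). Pfkp was not called under either rescaling, with -0.08 by median ratio and 0.15 after the length correction. The muscle-type Pfkm stood at 17.03 TPM in the knockout and 20.6 TPM in wild type (limma adjusted p = 0.051).

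Tigar, a phosphatase that also removes the regulatory bisphosphate, had 4.36 ± 0.0324 TPM in the knockout and 5.4 ± 0.116 TPM in wild type (SD, n = 3 each; -0.26, limma adjusted p = 0.0104), and was not called under either rescaling (-0.06 and -0.07). Gpi1, the isomerase that supplies fructose phosphate, had 323 TPM in the knockout and 313 TPM in wild type (0.05, limma adjusted p = 0.551), and was called higher under both rescalings (0.29 with adjusted p = 0.0208, and 0.38 with adjusted p = 0.0142). The fructose bisphosphatase genes Fbp1 and Fbp2 were listed at 0 in all 6 EMT6 libraries.

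Among 15 kinase subunits and ubiquitin ligases that act on PFKFB proteins, 13 were tested, 11 were called lower and 0 higher, with a median of -0.36, beside 42.3% lower and 14.5% higher of all tested genes. Either rescaling left 5 of 13 lower and 0 higher. Of all tested genes, 25.4% were lower and 26.6% higher by median ratio, and 26.6% lower and 23.2% higher after the length correction. Akt1, which phosphorylates PFKFB2, was lower (-0.55, limma adjusted p = 0.00145), as were Prkaa1, a catalytic subunit of the energy-sensing kinase AMPK (-0.69, limma adjusted p = 0.00155), and Prkacb, a catalytic subunit of protein kinase A (-0.74, limma adjusted p = 0.00189). All 3 stayed called lower under both rescalings.

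Of 12 transcription factors, oxygen sensors and coactivators tied to PFKFB3 and PFKFB4, 11 were tested, 6 were lower and 1 higher, with a median of -0.61. Over all tested genes 42.3% were lower and 14.5% higher. Median-ratio scaling gave 6 lower and 3 higher, beside 25.4% lower and 26.6% higher of all tested genes. The length correction left 4 lower and 4 higher, beside 26.6% lower and 23.2% higher of all tested genes. Hif1a, the oxygen-regulated HIF subunit, had 17.8 ± 2.45 TPM in the knockout and 41.4 ± 6.74 TPM in wild type (SD, n = 3 each; -1.17, limma adjusted p = 0.00156), and stayed called under both rescalings (-0.94 and -0.86). Egln3, a prolyl hydroxylase that marks HIF for degradation (-2.64), and Ppard, a nuclear receptor (-1.02), were lower as well, and Egln2 was higher (0.25, limma adjusted p = 0.0194). Ncoa3, named after its values were seen, encodes the coactivator SRC-3, which PFKFB4 is known to phosphorylate in human breast cancer cells. It had 3.12, 2.86 and 4.21 TPM in the knockout libraries, against 5.37, 5.26 and 6.43 TPM in the wild-type libraries. The groups did not overlap (-0.61, limma adjusted p = 0.0112), but Ncoa3 was not called with the length trend removed (-0.24, adjusted p = 0.233). Under median-ratio scaling it lay at the threshold (-0.42, adjusted p = 0.0499). In TPM the coactivator gene Ncoa1 was not called (-0.05, limma adjusted p = 0.767) and Ncoa2 was lower (-0.74, limma adjusted p = 0.0155). With the length trend removed, Ncoa1 was called higher (0.34, adjusted p = 0.0479) and Ncoa2 was not called (-0.26, adjusted p = 0.176).

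All 16 HIF target genes listed beside the family were tested, and 10 were lower and 3 higher, with a median of -0.42, again beside 42.3% lower and 14.5% higher over all tested genes. Median-ratio scaling gave 7 lower and 4 higher, beside 25.4% lower and 26.6% higher of all tested genes. The length correction left 9 lower and 4 higher, beside 26.6% lower and 23.2% higher of all tested genes. Slc16a3, a lactate exporter (-0.72), P4ha1, a collagen prolyl hydroxylase (-0.75), and Slc2a1, a glucose transporter (-0.598), were lower. The vasoactive peptide gene Adm (1.66) and the glycolytic genes Pgk1 (0.30) and Hk2 (0.34) were higher. These 6 kept their direction and call under both rescalings.

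Genes beside Pfkfb4 on mouse chromosome 9 moved in both directions. Of the 5 nearest tested genes on each side, 4 were lower, 1 was higher and 5 were not called, with a median of -0.24 and a range of -1.11 to 0.68. This lies near the 42.3% lower and 14.5% higher of all tested genes. Median-ratio scaling gave 3 lower and 4 higher of these 10, beside 25.4% lower and 26.6% higher of all tested genes. The length correction gave 3 lower and 3 higher, beside 26.6% lower and 23.2% higher of all tested genes. Col7a1, a collagen gene before Pfkfb4, fell to 19.6 ± 1.23 TPM in the knockout, against 43.2 ± 2.53 TPM in wild type (SD, n = 3 each; -1.11, limma adjusted p = 0.000194). The next gene, Ucn2, a peptide hormone gene, had 0.485 TPM in the knockout and 1.28 TPM in wild type (-0.61, limma adjusted p = 0.00474). On the other side, Shisa5 had 73.02 TPM in the knockout and 69.9 TPM in wild type (0.06, limma adjusted p = 0.535), and was called higher by median ratio (0.30, adjusted p = 0.0176) and after the length correction (0.22, adjusted p = 0.0487). The DNA exonuclease gene Trex1 was higher (0.68, limma adjusted p = 0.00163). Trex1 and Atrip share an annotated boundary and overlap, so reads may be split between them.

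The genes whose values followed Pfkfb4 most closely over the 6 EMT6 libraries, in log2(TPM + 1), were Sf3a1, a splicing factor (Pearson r = 0.999), Pdf, a mitochondrial peptide deformylase (r = 0.998), and Ahdc1 (r = 0.998), among 8723 genes that averaged 5 TPM or more. The r of deviations from the group means was 0.986, 0.984 and 0.992. In MDA-MB-231 they were ENSG00000108604 (r = 0.997) and ENSG00000137310 (r = 0.994) out of 9152 genes, with 0.993 and 0.985 for the deviations. The libraries of a line share their group difference and their scaling, and 399 genes in EMT6 and 100 in MDA-MB-231 exceeded an r of 0.95, so these values are descriptions only.

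**Figure D5:**
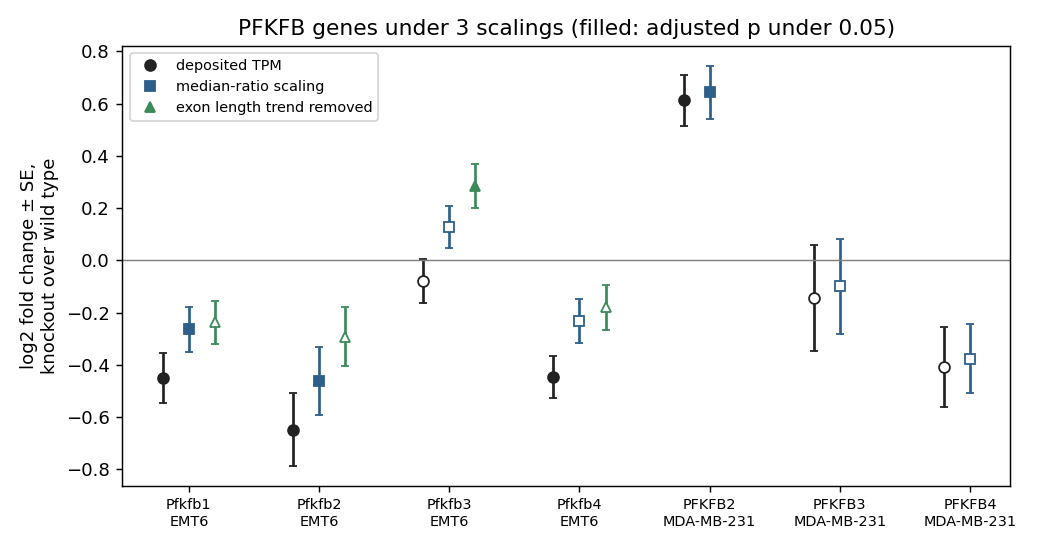
Log2 fold changes (knockout over wild type) ± SE of the tested PFKFB genes in deposited TPM, after median-ratio scaling and, for EMT6, with the exon length trend removed. Filled symbols have a limma adjusted p under 0.05. PFKFB2 in MDA-MB-231 stays at 0.61 to 0.64, while Pfkfb4 in EMT6 is filled at -0.45 in TPM and open at -0.23 and -0.18 after rescaling, and Pfkfb3 changes sign.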

How the data were processed

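Polyadenylated RNA was measured in 12 libraries. TopHat2 2.1.1, featureCounts, Subread 1.6.4 and CASAVA 1.8.2 are named with mm10 and GRCh38.p7, per the submitters' processing notes. Their settings, strand included, are not given there. TPM values were deposited by the authors and sum to 1000000 per library. Depth is unknown, so no interval for counting error can be given.

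Mouse symbols, positions and exon lengths are those of GENCODE M21 (GRCm38, also called mm10), with 54097 of 54331 identifiers matched. Human identifiers other than the 4 members were not named.

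Each line was fitted alone with limma 3.58.1 (R 4.3.3, mean-variance trend). Other steps used Python 3.11.15. The fit was tested on simulated data in which 200 genes were changed by known folds. At 1.5-fold it recovered 42% of the changed genes in EMT6 and 12% in MDA-MB-231. At 2-fold the shares were 68% and 50%. False calls numbered 7 in EMT6 and 0 in MDA-MB-231. In the data, 56.7% of tested genes were called in EMT6 and 20.0% in MDA-MB-231, far more than were changed in the simulation. These rates therefore need not hold for the fits to the data. Median-ratio scaling divided each library by a size factor, the median over tested genes of its ratio to their geometric mean, and the length trend was a lowess curve (span 0.3) on exon length. Where 2 identifiers share a symbol, the one with the higher mean was used.

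The members and lists were chosen with earlier results of these data known. Named genes are the members, the circuit genes, up to 3 per direction with the smallest adjusted p in other lists, the neighbours of Pfkfb4 and its closest correlates. Ncoa1, Ncoa2 and Ncoa3 are named outside this rule.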

Additional observations from a re-analysis of the deposited data

Results flagged for a closer look

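PFKFB2 pointed in opposite directions in the 2 lines. All 3 knockout libraries of MDA-MB-231 lay above all wild-type libraries, and all 3 knockout libraries of EMT6 lay below them. The same held for 17.2% of all tested genes in MDA-MB-231 (higher) and 48.3% in EMT6 (lower). The log2 fold change in MDA-MB-231 exceeded that in EMT6 by 1.26 (0.61 against -0.65). Relative to the median of all tested genes of each line, the values were 0.65 and -0.44. The EMT6 drop was not called with the exon length trend removed (-0.29, limma adjusted p = 0.0759), a correction not made in MDA-MB-231. The difference between lines was not tested, because the tables were normalized separately and come from different species.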

How the results depend on the processing

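In EMT6, removal of the exon length trend left Pfkfb1 at -0.24 (limma adjusted p = 0.0581), Pfkfb2 at -0.29 (0.0759) and Pfkfb4 at -0.18 (0.134), none called, and turned Pfkfb3 to 0.28 (0.0329). Median-ratio scaling left Pfkfb4 at -0.23 (0.0632) and turned Pfkfb3 to 0.13 (0.238). The cause was not tested. In MDA-MB-231 the 3065 calls dropped to 1564 with a replicate block, and ranged from 1551 to 2530 with 1 library left out. The count was 1559 without wild-type replicate 1, 1968 without wild-type replicate 3, 1551 without knockout replicate 2 and 1821 without knockout replicate 3. Deviations of same-numbered libraries from their group means correlated with r of -0.02 to 0.07 for EMT6 and -0.13 to 0.11 for MDA-MB-231. Not every library correlated best with its own number. Correlations this weak, from 3 libraries per group, cannot settle whether the numbers pair the libraries. With the block, PFKFB2 in MDA-MB-231 had an adjusted p of 0.0491 and PFKFB4 of 0.216, and it changed no call of a member. PFKFB3 in MDA-MB-231 ranged from -0.33 to 0.042 with 1 library left out and was positive only without knockout replicate 1 (0.042, adjusted p = 0.89). PFKFB1, untested there, moved from -0.05 to -0.24 with a pseudocount of 0.1. The exon length trend was not removed in MDA-MB-231, where exon lengths were not used.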
